A study of Homo sapiens with 4 samples.

Results

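The 10 genes described here encode the Toll-like receptors (TLRs) of the cell surface, the co-receptors that hand bacterial lipopolysaccharide (LPS) to them, and the adaptors that carry their signal: TLR1, TLR2, TLR4, TLR5, TLR6, LY96, CD14, MYD88, TIRAP and TICAM1. All probe sets that the platform annotation gives to exactly 1 of these symbols were taken, which gave 17 of the 41091 probe sets tested. TLR4 and TIRAP had 4 probe sets each and TLR6 had 2, and each of the other 7 genes had 1. The cells were AGS, an established human gastric adenocarcinoma line. The treated group received medium with 10 µg/ml Helicobacter pylori LPS for 8 h, and the untreated group received fresh medium for the same time. Each group held 2 arrays, numbered 1 and 2, and the design text speaks of 2 independent experiments. No other agent or genetic change was named, the bacterial strain was not given in the labels used here, and 1 cell line stands for gastric epithelium throughout.

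LPS is drawn from the outer membrane by LBP and CD14 and presented to TLR4, which binds it together with its partner MD-2, the product of LY96. TLR2 pairs with TLR1 or TLR6 to recognise bacterial lipoproteins, and TLR5 recognises flagellin. TIRAP bridges TLR2 and TLR4 to MYD88, which assembles the IRAK kinases and leads to NF-kB, while TICAM1 (TRIF) carries the separate signal of TLR3 and of internalised TLR4. Macrophages and other myeloid cells are rich in surface TLRs and CD14, and H. pylori LPS is known as a poor TLR4 agonist.

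The promoters of TLR4 and MYD88 are shown because they belong to the gene whose probe sets differed most between the groups and to the member with the brightest probe set. Each runs from 250 bases before to 50 bases after the gene's start, 5′ to 3′ on the gene's strand, from RefSeq (GRCh38.p14): chr9:117704153-117704452, plus strand, for TLR4 and chr3:38138411-38138710, plus strand, for MYD88. Capitals mark matches on either strand to GAGGAA, the core bound by the myeloid factor PU.1.
TLR4: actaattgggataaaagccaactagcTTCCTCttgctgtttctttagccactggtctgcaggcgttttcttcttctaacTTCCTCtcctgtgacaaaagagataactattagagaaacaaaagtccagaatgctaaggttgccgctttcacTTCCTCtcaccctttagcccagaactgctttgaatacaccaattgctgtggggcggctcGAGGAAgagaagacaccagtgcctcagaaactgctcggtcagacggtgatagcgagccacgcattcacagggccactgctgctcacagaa
MYD88: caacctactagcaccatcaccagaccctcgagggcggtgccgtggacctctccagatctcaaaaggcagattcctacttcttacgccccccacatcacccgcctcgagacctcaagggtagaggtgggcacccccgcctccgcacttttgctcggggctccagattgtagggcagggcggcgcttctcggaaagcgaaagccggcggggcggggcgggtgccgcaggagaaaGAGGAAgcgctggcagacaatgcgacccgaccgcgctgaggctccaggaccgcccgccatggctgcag

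The TLR4 window held 4 matches to GAGGAA, against 1 in the MYD88 window, and no matches overlapped. At least 1 match stood in 27.9% of 35116 promoters of the same length, and 4 or more stood in 32 of them. The RefSeq table held 7 member promoters. Besides TLR4 and MYD88, CD14 and TLR6 had 1 match each, and TLR2, TLR5 and TICAM1 had 0. The CpG dinucleotide occurred 8 times in the TLR4 window, 8 times in CD14, 5 in TLR6, 25 in MYD88, 27 in TLR5, 30 in TICAM1 and 33 in TLR2, with a median of 14 over all promoters. A match describes the letters only.

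Values are the deposited log2 expression values. The array gives no detection call here, so 107 probe sets of olfactory receptor genes, which are not expected to be active in a gastric line, served as a gauge of signal without transcript. They averaged from 3.63 to 7.51 over the 4 arrays, with a median of 5.46. Probe sets differ in affinity, so a position against this gauge describes brightness and does not rank transcripts. The labelled cell type was checked on its markers: the epithelial adhesion gene EPCAM and the simple-epithelium keratin genes KRT8, KRT18 and KRT19 lay between 12.43 and 14.45 on every array. By the brightest probe set of each gene, all 6 epithelial markers measured were brighter than every olfactory receptor probe set. None of the 9 monocyte and macrophage markers measured was, but only 4 of the 9 lay below the median of the gauge. AIF1, LST1 and FCER1G averaged 7.07, 6.68 and 6.13, brighter than 98.1%, 94.4% and 73.8% of the olfactory receptor probe sets. Among the dimmer ones, the leukocyte gene PTPRC stood at 4.86 and 5.00 on the LPS arrays and at 5.16 and 5.07 on the untreated arrays. SPI1, which encodes PU.1, was at 5.19 and 5.58 on the LPS arrays and 5.31 and 5.38 on the untreated arrays, and 46.7% of the olfactory receptor probe sets were dimmer. Correlations between arrays across probe sets ran from 0.9939 to 0.9972. The arrays numbered 2 had lower 18S ribosomal RNA signal (7.98 and 8.12) than those numbered 1 (9.89 and 10.07), each pair given as LPS and untreated. The part of this gap in the values below was not tested.

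**Figure D1:**
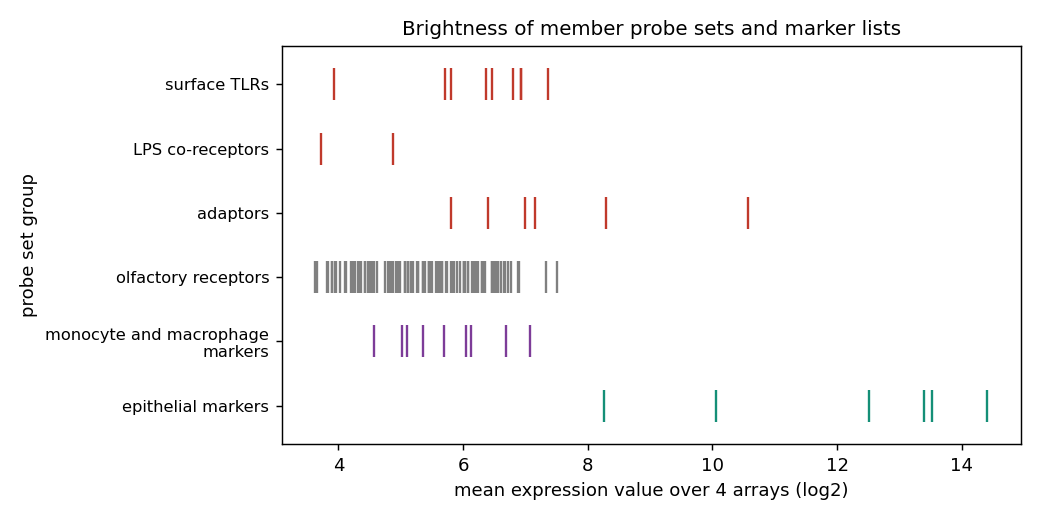
Mean expression value over 4 arrays (log2, horizontal axis) of each member probe set by role, of the olfactory receptor probe sets, and of the brightest probe set of each monocyte and epithelial marker; each tick is 1 probe set. The LPS co-receptors sit at the left, all surface TLR ticks lie within the span of the olfactory receptors, and 2 adaptor ticks stand beyond it.

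None of the 10 genes passed the test between LPS-treated and untreated cells. With limma over all 41091 probe sets, 0 of the 17 member probe sets passed an adjusted threshold of 0.05 in either direction (adjusted p = 1 for each), the same as the background of 0% of all probe sets. At an unadjusted p under 0.05 there were 0 members, against 2.68% of all probe sets. The member differences, LPS minus untreated, ran from -0.41 to 0.20 on the log2 scale with a median of -0.05, against 0.01 over all probe sets, and their median size was 0.06, against 0.08. For 14 of the 17, the 95% interval lay within 1.5-fold in both directions. The 3 that reached further were TLR4 probe sets, with a lowest bound of 0.54 times the untreated level. In RNA from whole cultures, fewer expressing cells and less RNA per cell cannot be told apart. The intervals bound the deposited values, and for dim probe sets not necessarily the transcript. The smallest p that an exact permutation test of a single probe set could reach with these 4 arrays was 0.333.

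**Figure D2:**
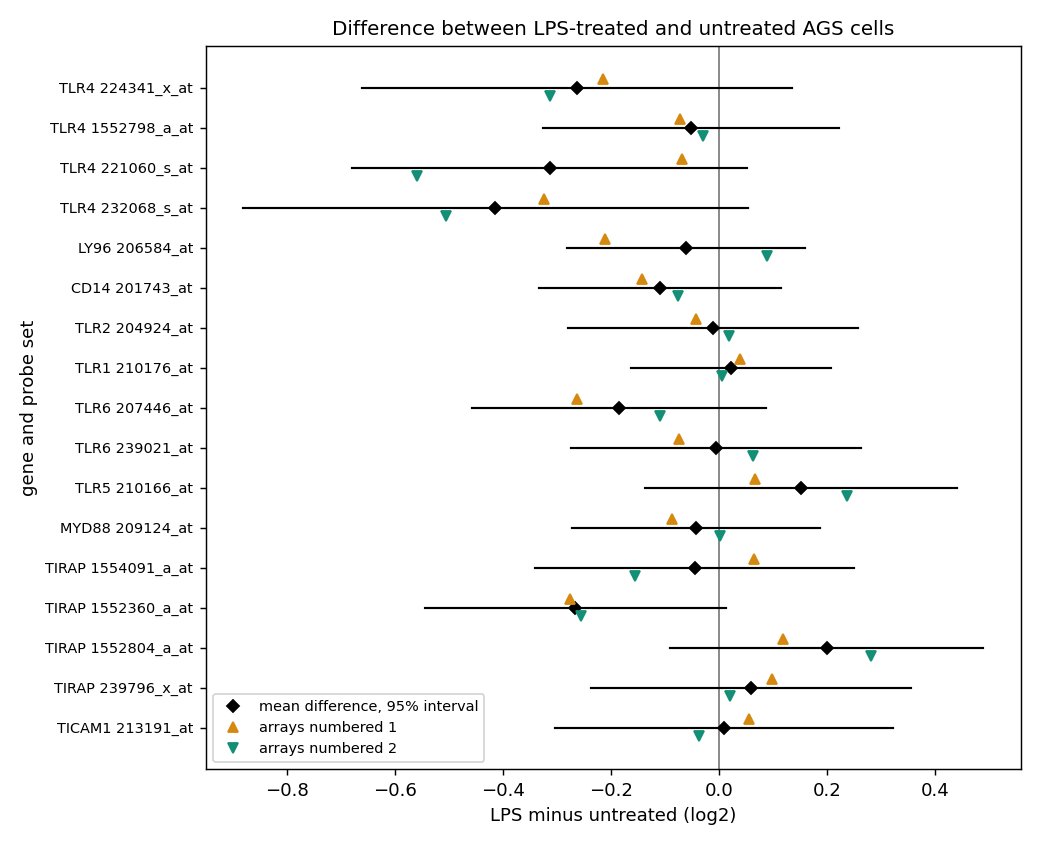
LPS minus untreated (log2, horizontal axis) for each member probe set. Diamonds and bars give the mean difference with its 95% interval from limma without covariates, and triangles give the difference between arrays of the same number. Every interval crosses 0, and the widest belong to 3 TLR4 probe sets.

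Of the 17 probe sets, 6 had both LPS arrays below both untreated arrays and 2 had both above. This is 35.3% and 11.8% of the members, while over all probe sets 12.4% were lower and 17.3% higher in that way. The 6 lower probe sets came from 4 genes, TLR4, CD14, TLR6 and TIRAP, and 3 of them measured TLR4 itself. Those 3 were 232068_s_at, 221060_s_at and 1552798_a_at, the last with a difference of only -0.05. The arrays of TLR4 224341_x_at overlapped, at a difference of -0.26. Probe sets of 1 gene share their transcript and their arrays, so they are not separate observations. The 2 higher probe sets measured TLR5 and TIRAP. Within same-numbered arrays, 7 probe sets (41.2%) were lower with LPS in both pairs and 4 (23.5%) were higher in both, against 24.7% and 30.7% of all probe sets. Of those 7, 4 measured TLR4.

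TLR4, the LPS receptor, had the largest differences among the members, and its 4 probe sets all lay below 0 but did not agree in size. The probe set 232068_s_at read 6.83 and 6.36 on the LPS arrays, against 7.16 and 6.86 on the untreated arrays. The arrays did not overlap, though LPS replicate 1 and untreated replicate 2 nearly met, and LPS replicate 2 was the lowest. The difference was -0.41 ± 0.19 (SE), or 0.75 times the untreated level (95% interval 0.54 to 1.04). The probe set 221060_s_at read 6.86 and 6.67 with LPS, against 6.93 and 7.23 without. Here untreated replicate 2 stood apart on the high side, and the difference of -0.31 ± 0.15 (SE) was made up of -0.07 in the number 1 pair and -0.56 in the number 2 pair.

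The brightest TLR4 probe set, 224341_x_at, read 7.40 and 7.06 with LPS, against 7.62 and 7.37 without. Its groups overlapped, since LPS replicate 1 lay above untreated replicate 2, and the difference was -0.26 ± 0.16 (SE). The probe set 1552798_a_at read 6.90 on both LPS arrays, against 6.97 and 6.93 on the untreated arrays. This probe set had the tightest readings of the 4, with a difference of -0.05 ± 0.11 (SE) and an interval of the ratio from 0.80 to 1.17. The 3 probe sets with the larger differences end in _s_at or _x_at, suffixes for probes that can match other transcripts, whereas _a_at marks transcripts of the same gene. Whether shared signal has a part in the disagreement was not tested. The ratio of 3′ to 5′ ACTB control probe sets is a gauge of RNA integrity that is higher where the 5′ end gives less signal. It was 1.04 and 0.76 (log2) on the LPS arrays, against 1.09 and 0.94 on the untreated arrays. The lowest ratio, with the most 5′ signal relative to 3′, was on the array where 3 TLR4 probe sets were also lowest. The same ratio for GAPDH did not follow, at 0.40 and 0.36 on the LPS arrays and 0.26 and 0.36 on the untreated arrays. The part of RNA integrity in the TLR4 values was not tested. Without LPS replicate 2, the differences of 232068_s_at, 221060_s_at and 224341_x_at were -0.18, -0.22 and -0.09. Leaving out LPS replicate 1 instead gave -0.65, -0.41 and -0.44. The 4 probe sets were brighter than 96.3% to 99.1% of the olfactory receptor probe sets, and none was beyond the brightest of these.

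**Figure D3:**
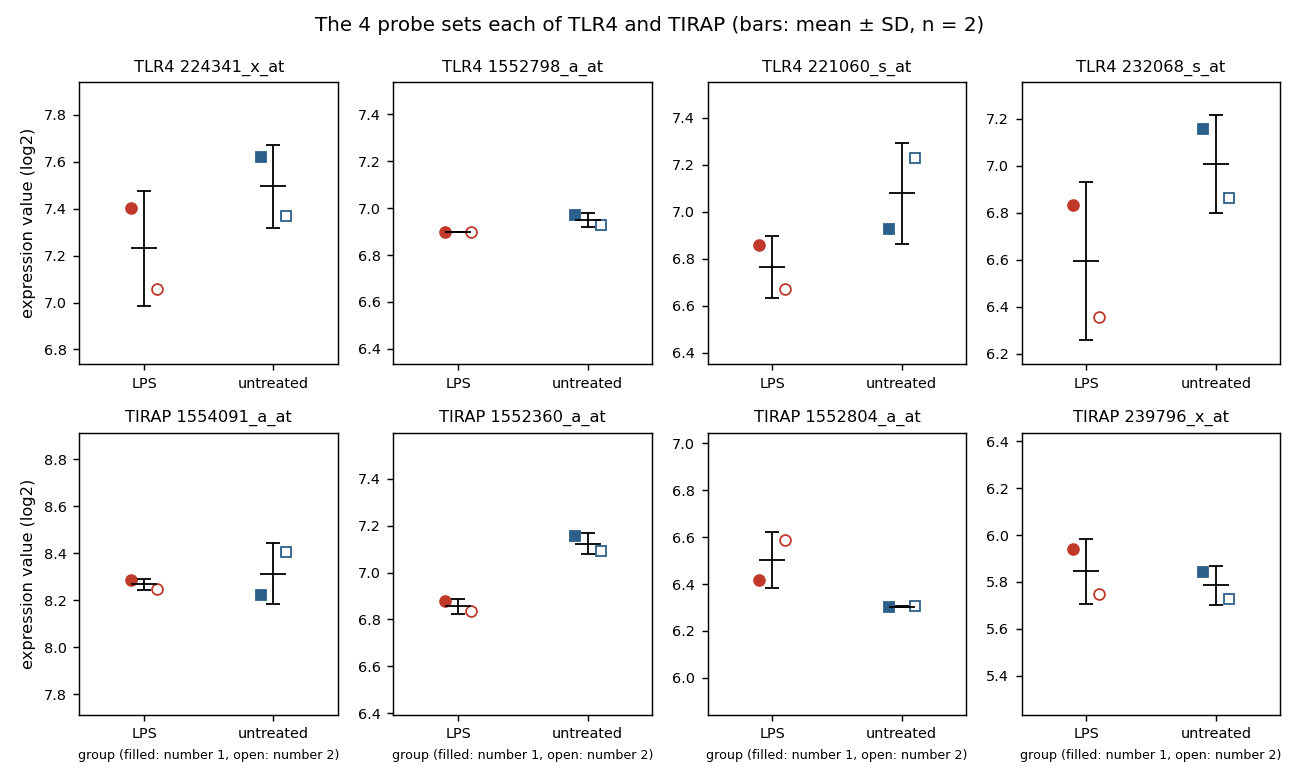
Expression value (log2, vertical axes spanning the same width) on the LPS and untreated arrays for each probe set of TLR4 (upper row) and TIRAP (lower row); points are arrays, filled for number 1 and open for number 2, and bars give mean ± SD (n = 2). TLR4 1552798_a_at is nearly flat while the other TLR4 probe sets are lower with LPS, and TIRAP 1552360_a_at and 1552804_a_at lie in opposite directions.

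The genes whose pattern over the 4 arrays was most like that of the brightest TLR4 probe set were FZD3, ZNF670 and SMAD2. The root mean square difference between centred values was 0.0087, 0.0106 and 0.0111 (log2) over 4 arrays. Among 12717 candidate genes, 169 lay within 0.05, so 4 arrays single out few patterns.

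Both LPS co-receptors were dim. LY96, which encodes the TLR4 partner MD-2, read 3.60 and 3.77 on the LPS arrays, against 3.81 and 3.69 on the untreated arrays. The groups overlapped, and only 3 of 107 olfactory receptor probe sets were dimmer. CD14, which encodes the LPS-binding surface protein, read 4.79 and 4.87 with LPS, against 4.93 and 4.95 without. The arrays did not overlap, but the difference was only -0.11 ± 0.09 (SE) and 33 of the 107 olfactory receptor probe sets were dimmer. For LY96 the difference was -0.06 ± 0.09 (SE), with -0.21 in the number 1 pair and 0.09 in the number 2 pair. On these arrays, with or without LPS, both genes lay below the median of the gauge.

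The 4 probe sets of the lipoprotein receptors TLR2, TLR1 and TLR6 differed by -0.19 to 0.02, and none passed the test. TLR2, the shared partner of TLR1 and TLR6, read 6.36 and 6.37 with LPS, against 6.40 and 6.35 without, a ratio of 0.99 (95% interval 0.82 to 1.19). Its 4 arrays lay within a narrow band, with LPS arrays inside the untreated range. TLR1, which joins TLR2 on triacylated lipoproteins, read 3.98 and 3.90 with LPS, against 3.94 and 3.90 without, and only 7 of 107 olfactory receptor probe sets were dimmer. TLR6, the partner for diacylated lipoproteins, read 5.65 and 5.79 with LPS, against 5.91 and 5.90 without, on the probe set 207446_at. That probe set was lower on both LPS arrays, by -0.19 ± 0.11 (SE). The second TLR6 probe set, 239021_at, did not follow, at 5.63 and 5.78 with LPS and 5.71 and 5.71 without, a difference of -0.01.

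TLR5, the flagellin receptor, was the surface TLR with the largest positive difference. It read 6.47 and 6.62 with LPS, against 6.40 and 6.38 without, so both LPS arrays lay above both untreated arrays. The difference was 0.15 ± 0.12 (SE), or 1.11 times the untreated level (95% interval 0.91 to 1.36). The number 1 pair gave 0.07 and the number 2 pair 0.24, and 92 of 107 olfactory receptor probe sets were dimmer.

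**Figure D4:**
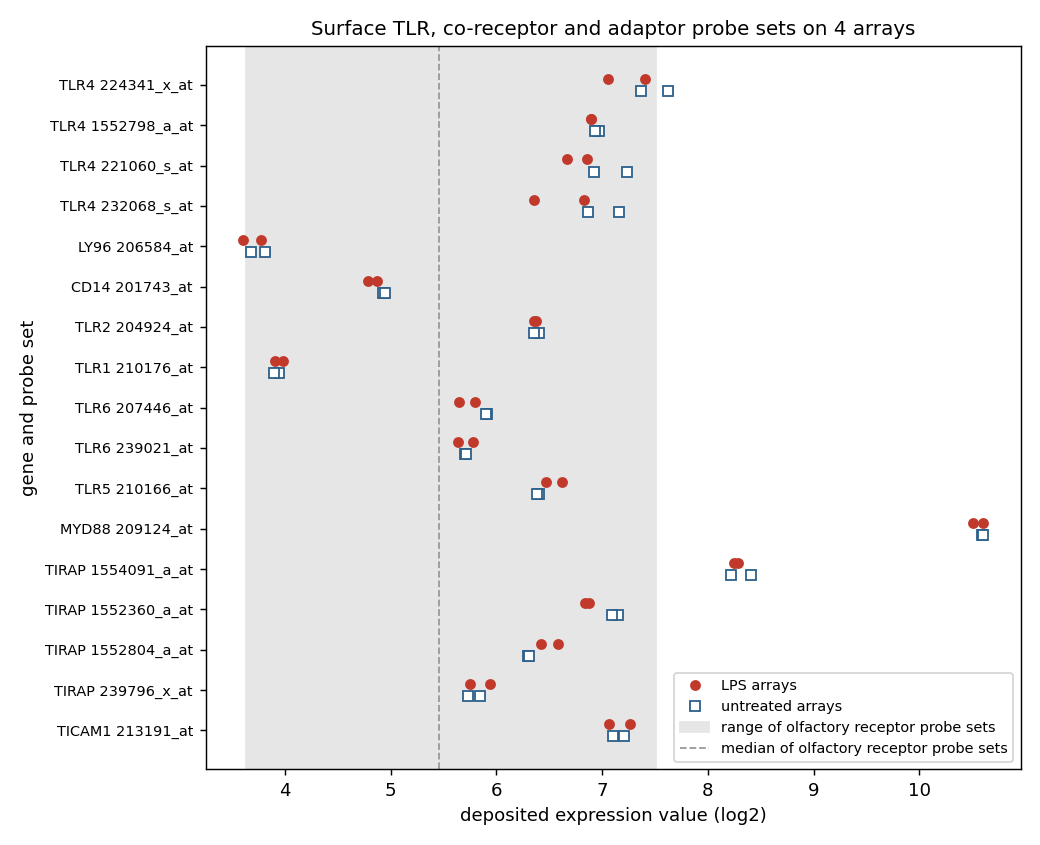
Expression value (log2, horizontal axis) of every member probe set on each array, with LPS arrays as filled circles above untreated arrays as open squares; the grey band spans the olfactory receptor probe sets and the dashed line is their median of 5.46. MYD88 and 1 TIRAP probe set lie beyond the band on all arrays, and LY96 and TLR1 lie at its dim end.

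Among the adaptors, MYD88 was the bright member. It read 10.51 and 10.61 with LPS, against 10.59 and 10.60 without, above 91.6% of all probe sets tested. The readings with LPS spanned the untreated ones, the ratio was 0.97, and the 95% interval was 0.83 to 1.14. TICAM1, the adaptor of the MYD88-independent branch, read 7.26 and 7.07 with LPS, against 7.21 and 7.10 without, a difference of 0.01 ± 0.13 (SE). Its groups overlapped, and 105 of 107 olfactory receptor probe sets were dimmer.

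TIRAP, the adaptor that links TLR4 and TLR2 to MYD88, gave readings that depended on the probe set. The brightest, 1554091_a_at, read 8.28 and 8.25 with LPS, against 8.22 and 8.40 without, and was brighter than every olfactory receptor probe set. Its groups overlapped, with a difference of -0.05 ± 0.12 (SE). The probe set 1552360_a_at read 6.88 and 6.83 with LPS, against 7.15 and 7.09 without. This was the most even difference among the members, -0.28 and -0.26 in the same-numbered pairs and -0.27 ± 0.12 (SE) in all, and it had the smallest unadjusted p of the members (limma, 0.0579, adjusted p = 1). The probe set 1552804_a_at went the other way without passing the test, at 6.42 and 6.59 with LPS and 6.30 and 6.31 without, a difference of 0.20 ± 0.12 (SE). The dimmest, 239796_x_at, read 5.94 and 5.75 with LPS, against 5.84 and 5.73 without, and its groups overlapped. Each of the first 3 carries the suffix for transcripts of a single gene, and which TIRAP transcripts each one reads was not analysed here.

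The rest of the pathway was taken from 5 lists with 50 genes, of which 44 were measured, by 117 probe sets. None passed the adjusted test in either direction (limma). At an unadjusted p under 0.05 there was 1 higher and 3 lower, or 3.42% of the 117 against 2.68% of all probe sets. Without overlap of the arrays 17.1% were higher and 14.5% lower, against the background of 17.3% and 12.4%, and the median difference was 0.02. Those 4 probe sets, chosen after their values were seen, were not the brightest of their genes: TLR8 at 0.26, TAB3 at -0.43, RAB11A at -0.40 and USP25 at -0.37.

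None of the 6 other TLR family genes (TLR3, TLR7, TLR8, TLR9, TLR10 and CD180) had a probe set brighter than all olfactory receptor probe sets. CD180, a TLR4-related surface protein, read 7.14 and 7.41 with LPS, against 7.21 and 7.09 without. TLR8, an endosomal receptor of single-stranded RNA, read 5.74 and 5.64 with LPS, against 5.62 and 5.55 without. TLR9 and TLR10 differed by 0.06 and -0.06, and TLR10 ran from -0.06 to 0.04 over its 2 probe sets. Among the kinases, ubiquitin ligases and interferon regulatory factors below the adaptors, 18 of 20 measured genes were beyond the gauge. Such counts, here and below, use only the brightest probe set of each gene. Many probe sets lie beyond the gauge: the brightest of CYLD, at 7.62 beyond it, was brighter than only 64.2% of all probe sets tested. CHUK, which encodes the kinase IKK-alpha, read 10.43 and 10.33 with LPS, against 10.65 and 10.52 without, a difference of -0.20 ± 0.10 (SE). Its arrays did not overlap, and it did not pass the test. On their brightest probe sets PELI1 and PELI3, ubiquitin ligases of the IRAK complex, differed by -0.20 and 0.18, and the kinase gene IRAK2 by 0.23. The IRAK2 arrays overlapped, with -0.05 in the number 1 pair and 0.51 in the number 2 pair. Its probe set was brighter than only 52.3% of the olfactory receptor probe sets. PELI1 ran from -0.20 to 0.10 over its 3 probe sets.

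Of the receptor accessories, 4 of 7 measured genes were beyond the gauge. The TLR chaperone gene HSP90B1 read 11.47 and 11.11 with LPS, against 11.29 and 11.03 without, with overlapping arrays. LBP, the LPS-binding protein, read 6.81 and 7.10 with LPS, against 6.78 and 6.80 without, a difference of 0.16 ± 0.14 (SE). The scavenger receptor gene CD36 differed by 0.14 and RAB11A, a recycling-endosome GTPase that carries TLR4, by 0.02 on its brightest probe set. Of the other adaptors, SARM1 was the 1 gene measured, at a difference of 0.10. All 10 brakes of the pathway were measured and 7 were beyond the gauge, with USP25 at -0.18, the deubiquitinase gene CYLD at -0.15, the pseudokinase gene IRAK3 at 0.09 and the ST2 receptor gene IL1RL1 at -0.09. Each of these differences is that of the gene's brightest probe set. CYLD ran from -0.36 to 0.20 over its 7 probe sets and CD36 from -0.17 to 0.14 over its 5. HSP90B1, LBP, RAB11A, SARM1, USP25, IRAK3 and IL1RL1 also had probe sets on both sides of 0.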

How the data were processed

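Biotin-labelled cRNA from total RNA was hybridised to single-channel Affymetrix arrays, per the labels' protocols. MAS5 and RMA are the tools listed, with no role or version, per the submitters' processing notes. The deposited log2 values look like RMA output (log2 scale, no zeros), with settings not given in the sources used here. They were used without further normalization, and all 4 value columns were used. Of 54675 probe sets, 41097 had 1 gene symbol in the platform annotation, 1801 had several and 11777 none. Gene numbers of 41043 were found in a current RefSeq table and 0 symbols changed. The whole table held 62 control probe sets, and after removing those among the probe sets with 1 symbol, 41091 probe sets of 19775 genes were tested.

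The comparison of LPS with untreated arrays used the two-sided moderated test of limma 3.58.1 (R 4.3.3), whose variance prior followed intensity, without covariates, and p-values were adjusted by Benjamini-Hochberg over all probe sets tested. The labels do not say whether the arrays of a group came from separate cultures beyond the stated independent experiments. Standard errors, intervals and p-values rest on a moderated variance. It draws the spread between a probe set's arrays toward a prior fitted over all probe sets. For TIRAP 1552360_a_at the SD was 0.03 with LPS and 0.05 without, while the moderated SE of the difference was 0.12. The number of arrays limits the precision. Members and lists were chosen with earlier results of these data known. Named were all member probe sets, up to 4 genes per list with the most extreme moderated statistic on their brightest probe set, and the 3 genes most like TLR4. In simulated data with 200 of 41091 probe sets changed, the test of LPS against untreated recovered 6.6% of those changed 1.5-fold, 56.8% changed 2-fold and 93.4% changed 3-fold. The simulated variances were drawn from the fitted prior, all changes were upward, and the simulated arrays varied independently. In the data same-numbered arrays deviated together, so these rates may not hold for them. Figures were drawn with matplotlib 3.10.9.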

Additional observations from a re-analysis of the deposited data

How the results depend on the processing

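No member probe set passed the adjusted threshold under any of the 10 alternatives (limma, smallest adjusted p = 0.655), and no probe set of the whole table did (smallest 0.134). At an unadjusted p under 0.05, members numbered 1 with quantile normalization and 1 without the intensity trend (TIRAP 1552360_a_at in both), 3 with the replicate number as a block, and 0 to 3 when 1 array was left out, where the lone array is assumed to vary like the other group. Over all probe sets that count was 1102, against 3006 under the replicate block, 516 with the filter at the median and 559 with 1 probe set per gene, the last 2 with fewer tested, and 316 to 3031 when 1 array was left out. The members under the block were TLR4 224341_x_at and 232068_s_at and TIRAP 1552360_a_at, and without LPS replicate 1 they were the 3 TLR4 probe sets other than 1552798_a_at. Same-numbered arrays deviated together (r = 0.543 across probe sets, which are not replicates), but the labels do not state that a number marks a shared experiment. The SEs and intervals given above are those without the block, and their width depends on this choice. With the block, the SE of TLR4 232068_s_at was 0.097, against 0.193 without it. For 224341_x_at it was 0.087 against 0.165, and for 221060_s_at 0.141 against 0.151. The cause of the other changes was not tested. At an unadjusted p under 0.05 (limma), the block gave 3 of 17 members, against 3006 of 41091 probe sets. Quantile normalization gave 1 of 17 against 1229 of 41091, and omitting the intensity trend gave 1 of 17 against 1069 of 41091. The sign of 9 member probe sets held throughout, all 4 of TLR4 among them. With 1 array left out it turned for 8: LY96 (-0.147 to 0.024), TLR2 (-0.035 to 0.011), TLR1 (-0.017 to 0.061), TLR6 239021_at (-0.077 to 0.066), MYD88 (-0.093 to 0.0069), TICAM1 (-0.089 to 0.108), TIRAP 1554091_a_at (-0.137 to 0.047) and TIRAP 239796_x_at (-0.038 to 0.157). Quantile normalization put TICAM1 at -0.008. Dim values limit what LY96, CD14 and TLR1 can show.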
